A study of Mus musculus with 10 samples.

Results

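The bone morphogenetic protein (BMP) and transforming growth factor beta (TGF-beta) ligands described here are 9 secreted signalling proteins of 1 superfamily, *Bmp2*, *Bmp4*, *Bmp5*, *Bmp6*, *Bmp7*, *Bmp10*, *Tgfb1*, *Tgfb2* and *Tgfb3*. They were chosen by gene name, and all 9 were found among the 23195 genes of the deposited table. The libraries are polyA RNA-seq of heart tissue dissected at embryonic day 13.5 from male mice whose strain is labelled C57BL6/J, 5 labelled wildtype and 5 labelled Nos1ap_null. The null embryos carried *Nos1ap* tm1d on both chromosomes, a constitutive allele that lacks exon 4 and was made from a knockout-first allele by ACTB-Flpe and CMV-Cre, so the loss is not restricted to heart muscle. Wild-type embryos were *Nos1ap* +/+, and both genotypes share the same strain, sex, tissue and age. Values in the table are means over each genotype of the normalized count, a read count divided by the size factor (relative depth) of its library. For 6 of the 9 ligands the counts of the single libraries could be derived from these means, whereas for *Bmp7*, *Bmp10* and *Tgfb2* the means are too large and only the mean of each genotype is given, with no error.

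BMPs and TGF-betas are made as precursors that are cut by furin-like proteases and act as dimers. They bind pairs of type I and type II serine/threonine kinase receptors, which phosphorylate SMAD1, SMAD5 and SMAD9 for BMPs and SMAD2 and SMAD3 for TGF-betas, and these enter the nucleus with SMAD4. In the developing heart, BMP2 and BMP4 are known from the atrioventricular canal and outflow tract, BMP10 from trabecular myocardium, and TGF-beta2 from the transformation of endocardium to cushion mesenchyme. A lower level in a library of bulk heart tissue can come from fewer cells of a type or from less RNA per cell, and these cannot be told apart.

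The ligands are paralogs, so the letters that could let a read be assigned to the wrong one are shown first. Among all 36 pairs of the 9 coding sequences (GRCm38, GENCODE M21), the longest identical run was 25 bases, between *Bmp6* and *Bmp7*, and the next were 23 bases, between *Bmp5* and each of them. The reads were 100 bases long, so every shared run was shorter than a whole read. The *Bmp6* and *Bmp7* run and the overlapping *Bmp5* run lie in exon 4 of each gene, and each is printed on the strand of its gene with 12 flanking bases in lower case. Capitals mark the 25 bases that *Bmp6* shares with *Bmp7* in those 2 lines, and in the *Bmp5* line the 23 bases that it shares with *Bmp7*.

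Bmp5, chr9:75873308-75873354, plus strand: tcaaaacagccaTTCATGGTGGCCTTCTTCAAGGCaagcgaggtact
Bmp6, chr13:38485789-38485837, plus strand: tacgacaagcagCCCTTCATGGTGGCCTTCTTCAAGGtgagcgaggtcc
Bmp7, chr2:172879425-172879473, minus strand: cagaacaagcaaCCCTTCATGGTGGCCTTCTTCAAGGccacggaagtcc

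Among the TGF-beta genes the longest shared run was 15 bases, in *Tgfb1* and *Tgfb3* (capitals, exon 7 of both) and likewise in *Tgfb2* and *Tgfb3*. The close paralogs *Bmp2* and *Bmp4* also shared 15 bases at most.

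Tgfb1, chr7:25704877-25704915, plus strand: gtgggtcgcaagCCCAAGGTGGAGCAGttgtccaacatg
Tgfb3, chr12:86057807-86057845, minus strand: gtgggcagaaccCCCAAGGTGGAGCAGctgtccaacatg

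Reads were counted with regard to strand. Of the transcripts that overlap ligand exons on the opposite strand, the antisense gene *Gm26903* shares the most, 1878 exon bases of *Bmp5*.

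*Nos1ap*, the targeted gene, had a normalized count of 144 ± 14.4 (SD, n = 5) in wild-type and 39.8 ± 5.20 (SD, n = 5) in null libraries. The wild-type values spanned 126 to 161 and the null values 31.1 to 44.4, so the labels and the targeted gene go together. Libraries are numbered 1 to 5 within a genotype from the largest to the smallest size factor, which is not the replicate number of the labels. Their estimated depth was 11328000 to 14023000 read pairs. Among 10251 protein-coding genes tested with limma between genotypes, 1 was higher in the null (0.00976%) and 2 were lower (0.0195%) at an adjusted p under 0.05, namely *Mt2* as higher and *Nos1ap* and *Gm7694* as lower. At an unadjusted p under 0.05 there were 367 genes (3.58%). Genes with a group mean of 1000 or more have no derived counts, so they were not tested and these shares leave them out. The 8 cardiomyocyte markers examined had group means from 10622 to 129864, taken over both genotypes together. Wild-type library 3 stood apart in the smooth muscle gene *Myh11*, which was at 206 in it and at 28.3 to 69.1 in the other 9 libraries. The summed means of 4 smooth muscle markers were 18245 in wild type and 17690 in null, with no marker at 0. Null library 2 had the lowest level of the cartilage gene *Acan*, 21.1 against 50.1 to 112 in the other 9, with summed means of 3 cartilage markers at 1999 and 1940.2. The 4 liver markers summed to 15.3 to 75.5 in the wild-type and 14.1 to 29.4 in the null libraries, with means of 40.1 and 20.5. Summed means of the other marker lists reported here were 11651 and 11998 (endothelial and endocardial), 3818 and 4028 (epicardial), 30865 and 29749 (cushion mesenchyme and fibroblast), 503 and 467 (myeloid), and 153 and 142 (lung and airway epithelium). The last sum covers *Epcam*, *Cdh1* and *Krt8* only, 3 of the 5 markers listed, and 1 gene reached a mean of 141 in it. *Nkx2-1* and *Sftpc* were not among the genes of the deposited table, so this sum does not show lung tissue.

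No ligand with derived counts differed between wild-type and null hearts beyond the spread of the libraries. Of these 6, 0 passed an adjusted p of 0.05 and 0 had an unadjusted p under 0.05 in limma, limma voom also called 0, and the 2 genotypes overlapped in each, whereas 0.79% of all genes tested did not overlap. The fold changes of these 6, null over wild type, ran from −0.13 (*Bmp6*) to 0.09 (*Bmp5*) on the log2 scale of normalized counts plus 1. In the ratio of group means, which covers all 9, 7 were above 0 and 2 below, with a median log2 ratio of 0.04. Of 13299 protein-coding genes whose mean reached 10, 6588 were above 0 and the median was −0.0009.

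**Figure D1:**
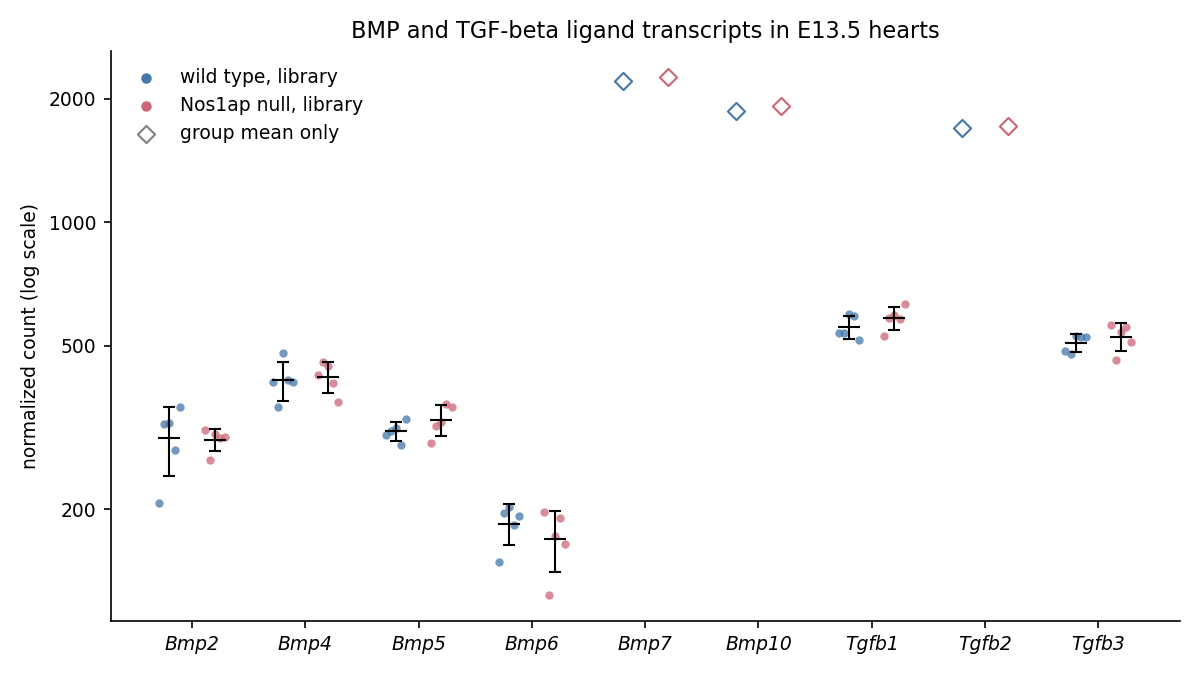
Normalized count (log scale) of each ligand in wild-type (blue) and *Nos1ap* null (red) hearts. Filled points are the 5 libraries of a genotype in order of number, bars are mean ± SD, and open diamonds are group means of ligands whose single libraries could not be derived. Blue and red points overlap for each of the 6 ligands that have them, and *Bmp2* in wild type spans the widest relative range, 207 to 355.

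*Bmp2* (ENSMUSG00000027358.6, chr2:133552159-133562885, plus strand) encodes a ligand required for atrioventricular canal and cushion formation. Wild-type libraries 1 to 5 had normalized counts of 207, 323, 325, 279 and 355, and null libraries 311, 263, 304, 297 and 299.5. The lowest and highest of all 10 libraries were both wild type, and every null library lay between them. The means were 297.7 ± 57.5 and 295.3 ± 18.6 (SD, n = 5 each). The log2 fold change in limma was 0.01 ± 0.12 (SE; adjusted p = 0.998), with a 95% interval of 0.838- to 1.21-fold, while the ratio of means had the opposite sign (−0.01). An exact permutation test of the means, two-sided as all tests here, gave p = 0.952.

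*Bmp4* (ENSMUSG00000021835.14, chr14:46383520-46390669, minus strand), a ligand of outflow tract and mesoderm, had 407, 354, 480, 412 and 408 in the wild-type libraries. The null libraries had 424, 457, 448, 406 and 365. The highest value was in wild-type library 3, the library with high *Myh11*, and its part in this value was not tested. Means were 412 ± 44.9 and 420 ± 36.6 (SD, n = 5 each), the log2 fold change was 0.03 ± 0.07 (SE; limma adjusted p = 0.998; 0.917- to 1.13-fold) and the exact permutation p was 0.802. Without wild-type library 3 the log2 fold change was 0.08.

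*Bmp5* (ENSMUSG00000032179.7, chr9:75775364-75900310, plus strand) and *Bmp7* encode ligands of the same subgroup as *Bmp6*, which act in cushion and myocardial growth with overlapping roles. *Bmp5* had 304, 311, 315, 286 and 332 in wild-type and 289.8, 319, 326, 359.7 and 355 in null libraries. Of the null libraries, 4 were above the wild-type mean and 2 were above every wild-type library. The means were 309 ± 16.8 and 329.8 ± 28.6 (SD, n = 5 each), a log2 fold change of 0.09 ± 0.07 (SE; limma adjusted p = 0.998; exact permutation p = 0.198) with a 95% interval of 0.967- to 1.17-fold.

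*Bmp6* (ENSMUSG00000039004.5, chr13:38345107-38500302, plus strand), the ligand best known from endothelial control of hepcidin and iron, had the lowest level per kilobase of the 9, as given further on. Its wild-type libraries had 149, 196, 203, 183 and 192, and its null libraries 197, 124, 172, 190.1 and 164. In each genotype 1 library was low, number 1 in wild type and number 2 in null, the latter also the library with the lowest *Acan*, whose part in this value was not tested. The means were 184 ± 21.2 and 169.5 ± 28.8 (SD, n = 5 each). *Bmp6* had the largest log2 fold change by size, −0.13 ± 0.11 (SE; limma adjusted p = 0.998; 0.773- to 1.08-fold; exact permutation p = 0.389). Leaving out null library 2 moved this value to −0.02, and leaving out wild-type library 1 moved it to −0.21.

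*Bmp7* (ENSMUSG00000008999.7, chr2:172868012-172940321, minus strand) had a mean of 2208 in wild type and 2264 in null, a log2 ratio of 0.04. *Bmp10* (ENSMUSG00000030046.6, chr6:87428994-87437677, plus strand), the heart-restricted ligand of trabeculation that also binds ALK1 on endothelium, had means of 1862 and 1919, also a log2 ratio of 0.04. *Tgfb2* (ENSMUSG00000039239.14, chr1:186622792-186705989, minus strand) had 1701 and 1720, a log2 ratio of 0.02. The counting error alone allows −0.002 to 0.07 for *Bmp7*, 0.002 to 0.08 for *Bmp10* and −0.03 to 0.06 for *Tgfb2* (95%), and the spread between hearts, which is not known for these 3 genes, adds to it. Among protein-coding genes with means within 1.5 times of each gene's, the group means differed by at least as much in 37.2% (*Bmp7*), 30.3% (*Bmp10*) and 70.7% (*Tgfb2*).

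*Tgfb1* (ENSMUSG00000002603.15, chr7:25687002-25705077, plus strand), the isoform of endothelium and blood cells, had 536, 538, 596, 592 and 517 in wild-type libraries. Its null libraries had 529, 583, 596, 581 and 633. The means were 556 ± 35.99 and 584 ± 37.2 (SD, n = 5 each), with 4 null libraries above the wild-type mean. The log2 fold change was 0.07 ± 0.06 (SE; limma adjusted p = 0.998; 0.971- to 1.14-fold; exact permutation p = 0.310).

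*Tgfb3* (ENSMUSG00000021253.6, chr12:86056745-86079041, minus strand), known for palate fusion and expressed in valve mesenchyme, had 485, 476, 527, 526 and 526 in wild-type libraries. Its null libraries had 563, 463, 541, 556 and 511, of which the lowest was again null library 2. The means were 508 ± 25.2 and 527 ± 41.1 (SD, n = 5 each), a log2 fold change of 0.05 ± 0.06 (SE; limma adjusted p = 0.998; 0.953- to 1.12-fold; exact permutation p = 0.397). Over these 6 ligands the lowest end of a 95% interval was 0.773-fold (*Bmp6*) and the highest 1.21-fold (*Bmp2*), and other ligands had narrower limits. The intervals hold for 1 gene at a time and are not adjusted. They do not give the smallest change that the adjusted test could call.

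**Figure D2:**
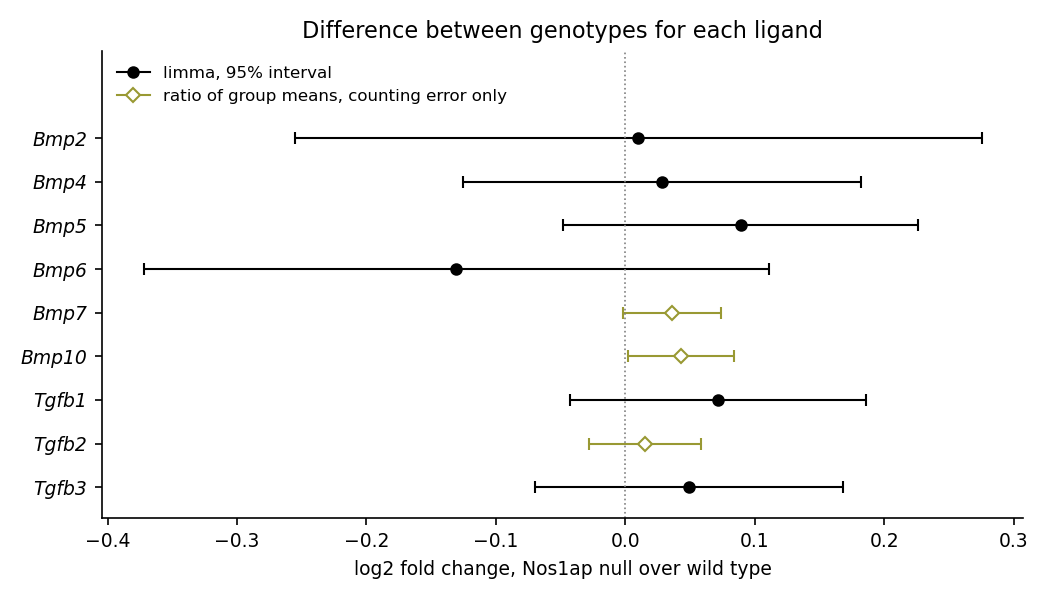
Log2 fold change of each ligand, *Nos1ap* null over wild type. Black points are limma estimates with 95% intervals, and open diamonds are ratios of group means with a 95% interval for counting error only, which leaves out the spread between hearts. Every black interval includes 0, and *Bmp6* lies farthest from it, at −0.13.

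Levels of different ligands were compared per length, as normalized count per 1000 bases of the longest annotated transcript. In wild-type hearts *Bmp7* was highest at 602 per kilobase, followed by *Bmp10* at 415 and *Tgfb2* at 333. Then came *Tgfb1* at 216 ± 13.99, *Bmp4* at 199.7 ± 21.7, *Tgfb3* at 150.2 ± 7.44, *Bmp2* at 83.7 ± 16.2, *Bmp5* at 80.9 ± 4.40 and *Bmp6* at 51.3 ± 5.89 (SD, n = 5). *Bmp7* alone made up 28.2% of the sum over the 9 in wild type and 28.3% in null. The null order was the same except that *Bmp5*, at 86.3, lay above *Bmp2*, at 83.1. Within libraries, *Bmp2* and *Bmp5* were not ordered beyond their spread (*Bmp2* higher in 6 of 10; exact sign-flip permutation p = 0.859; 5 neighbouring pairs tested, adjusted p = 0.859). *Tgfb1* was above *Bmp4* in 9 of 10 libraries (exact permutation p = 0.00586, adjusted 0.00732). *Bmp4* was above *Tgfb3*, *Tgfb3* above *Bmp2* and *Bmp5* above *Bmp6* in 10 of 10 (exact permutation p = 0.00195, the smallest that 10 libraries can give, adjusted 0.00326). The pairs were taken from the order that wild-type means of these same data gave. These p-values therefore describe only how steady a pair was between libraries. They do not test the order and do not cover the choice of length. The place of *Tgfb1* depends on its length, since its longest transcript, of 1 exon and 2573 bases, is not annotated as protein-coding. With merged exons (5042 bases) its level fell to 110.3 per kilobase and to the 6th place, below *Bmp4* and *Tgfb3*, while with the longest protein-coding transcript (2175 bases) it stayed 4th at 256. With merged exons *Tgfb3* was above *Tgfb1* in 10 of 10 libraries (exact permutation p = 0.00195).

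**Figure D3:**
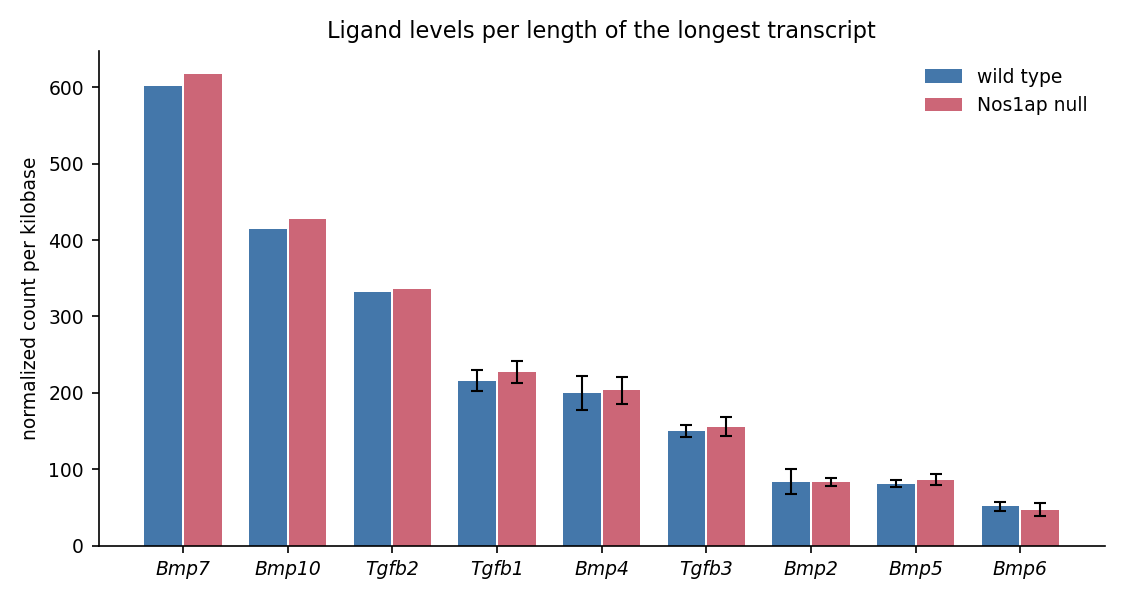
Normalized count per kilobase of the longest transcript for each ligand, in order of the wild-type level. Bars are group means and error bars are SD over 5 libraries, which could be given for 6 ligands only. *Bmp7* was about 602 in wild type and 617 in null, and *Bmp6* 51.3 and 47.2.

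The ligands with derived counts were also compared as shares within each library, which do not depend on size factors. *Bmp7*, *Bmp10* and *Tgfb2*, the highest per kilobase, are not part of these shares, so a shift that involves them would not be seen. *Tgfb1* was 59.0% ± 1.45 of *Tgfb1* plus *Tgfb3* (per kilobase) in wild type and 59.3% ± 2.94 in null (SD, n = 5 each; exact permutation p = 0.786). With merged exons the shares were 42.3% and 42.7%, so which of both isoforms is the larger part depends on the length used. Of the 4 BMPs with derived counts, *Bmp4* made up 48.1% ± 3.85 and 48.4% ± 3.58 (exact permutation p = 0.873). *Bmp2* was 20.1% ± 3.03 and 19.8% ± 1.22 (exact permutation p = 0.905), and *Bmp5* was 19.5% ± 1.36 and 20.6% ± 2.10 (exact permutation p = 0.381). *Bmp6* was 12.3% ± 0.955 and 11.2% ± 1.79 (exact permutation p = 0.270). All 5 shares had an adjusted p of 0.905, so none differed beyond its spread.

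The spread of each ligand among the hearts of 1 genotype was described by its coefficient of variation. *Bmp2* had a coefficient of variation of 19.3% in wild type, where counting error alone gives 5.80%. This was at percentile 99.03 of 2897 genes with similar means and derived counts. Counts are harder to derive for genes with a wide spread, so such percentiles may be too high. The wild-type value of *Bmp2* rested on library 1, without which it was 9.80%. In the null libraries it was 6.29%, at percentile 43.5. *Bmp6* had 11.5% in wild type and 17.0% in null, the latter at percentile 94.2 of 2246 genes. Each value rested on 1 library, since it was 4.27% without wild-type library 1 and 8.38% without null library 2. *Bmp5* in wild type had 5.43% and *Tgfb3* 4.95%, where counting error gives 5.69% and 4.44%, so their wild-type spread was about that of counting. In null libraries they had 8.67% and 7.80%, where counting error gives 5.51% and 4.36%. *Bmp4* had 10.9% in wild type and 8.71% in null, where counting error gives 4.93% and 4.88%. For *Tgfb1* the values were 6.47% and 6.36%, beside 4.24% and 4.14% from counting error. No library of any ligand lay beyond the 95% limit of Dixon's test within its genotype.

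Correlations between ligands from library to library were computed after the mean of each genotype was taken out. Over 10 libraries, Pearson's r of *Bmp2* and *Bmp6* was 0.73 (permutation p = 0.00416, adjusted over 15 pairs 0.0624) and Spearman's rho was 0.64 (permutation p = 0.0215, adjusted 0.187). Without the 2 libraries farthest from the median of *Bmp2*, r was 0.80. For *Bmp6* and *Tgfb3*, r was 0.82 (permutation p = 0.0171, adjusted 0.128) and rho was 0.78 (permutation p = 0.0250, adjusted 0.187), and r was 0.51 without the 2 libraries farthest from the median of *Bmp6*. In wild type alone r of *Bmp6* and *Tgfb3* was 0.43 and in null alone 0.99. The same values for *Bmp2* and *Bmp6* were 0.95 and 0.93. Neither pair passed the adjustment, nor did any of the other 13.

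**Figure D4:**
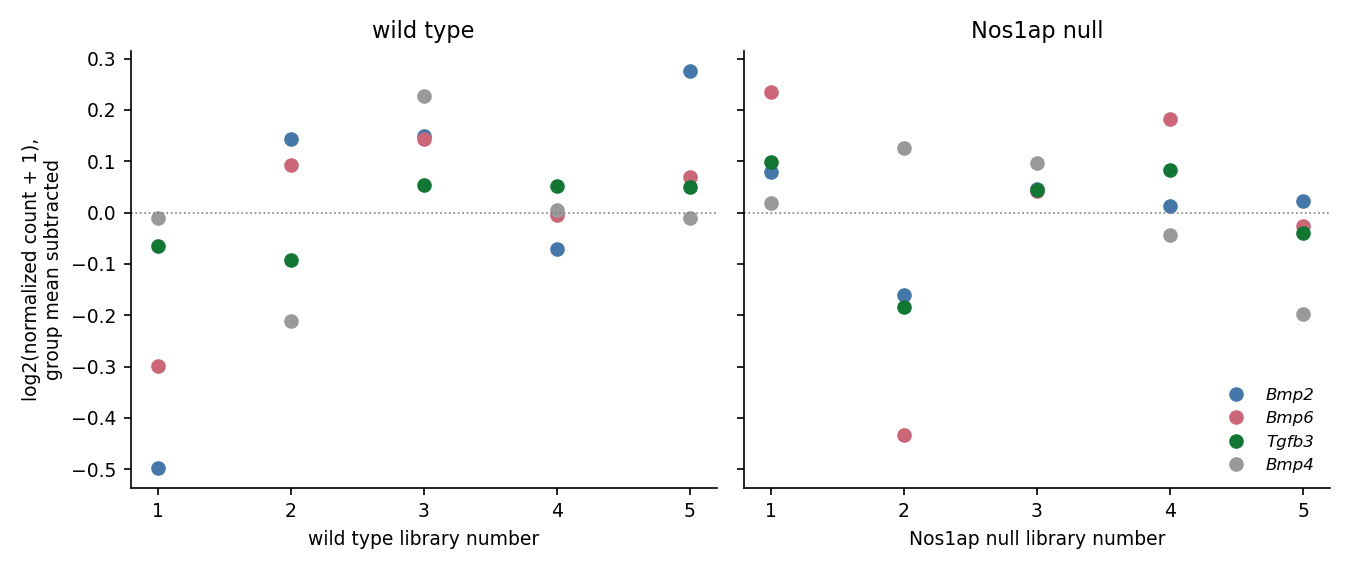
Log2(normalized count + 1) of *Bmp2*, *Bmp6*, *Tgfb3* and *Bmp4* in each library, with the mean of its genotype subtracted. Within wild type, library 1 is the lowest for *Bmp2* and *Bmp6*, and within null, library 2 is the lowest for *Bmp2*, *Bmp6* and *Tgfb3*, whereas *Bmp4* is at its highest null value there.

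Likeness of library pattern was measured as Pearson's r over 10 libraries after the genotype means were taken out. Among 7201 protein-coding genes with derived counts whose mean reached 100, the gene most like each ligand was found. It was *Trappc8* for *Bmp2* (r = 0.96), *Nup35* for *Bmp4* (0.95), *Exosc3* for *Bmp5* (0.89), *Bet1* for *Bmp6* (0.99), *Mageh1* for *Tgfb1* (0.91) and *Ankib1* for *Tgfb3* (0.96). Each is the highest of 7201 values, and no p is given.

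Other genes of these pathways were grouped by role. Of 64 that were tested with limma, 0 passed an adjusted p of 0.05 in either direction and 4 had an unadjusted p under 0.05, beside 3.58% of all genes. Of 22 other ligands of the superfamily, 11 had a mean of at least 10 and were tested, with a median log2 ratio of −0.02. *Gdf6*, a BMP-type ligand of joints, had 204 ± 15.6 in wild-type and 240.4 ± 31.7 in null libraries (SD, n = 5 each; log2 fold change 0.23 ± 0.09 SE; limma p = 0.0160, adjusted 0.998; exact permutation p = 0.0556), the only gene of this list with an unadjusted p under 0.05. Its limma p was 0.0504 without wild-type library 4 and 0.0650 without null library 3. *Gdf11* was at 335 and 321, and the activin subunit gene *Inhba* was at 129.7 and 133. *Gdf10*, named after its values were seen, had the largest ratio of all the pathway genes tested, with means of 70.9 and 27.4 (log2 ratio −1.37). Its wild-type libraries were at 34.8, 36.8, 230.0, 29.9 and 22.8 and its null libraries at 31.5, 17.1, 19.2, 38.7 and 30.5, so the difference lay in wild-type library 3, which also held the high *Myh11*. In limma its log2 fold change was −0.79 ± 0.60 (SE; adjusted p = 0.998), and −0.22 without that library.

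All 16 receptors and coreceptors had a mean of at least 10, with a median log2 ratio of 0.04, and 11 could be tested. The 3 with the highest normalized counts have group means only. The endothelial coreceptor *Eng* had 3568 in wild type and 3575 in null, the type I BMP receptor *Bmpr1a* had 1951 and 2043, and the type II receptor *Bmpr2* had 1428 and 1489. Of 6 SMAD transducers, 4 were tested, with a median log2 ratio of 0.01 over the 6. The TGF-beta transducer *Smad3* was at 877 ± 70.3 and 892 ± 24.7 (SD, n = 5 each), the shared *Smad4* at 1054 and 1114, and the BMP transducer *Smad5* at 1289.5 and 1293 (means). Among 9 inhibitory SMADs and intracellular brakes (6 tested) the median was −0.007, with *Ski*, a repressor of SMAD activity, at 2695 and 2699, *Smad6* at 1155 and 1128 and the ubiquitin ligase *Nedd4l* at 1033 and 1041.

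Of 19 secreted inhibitors and modulators, 14 had a mean of at least 10 and 11 were tested. *Chrd*, encoding chordin, which binds BMP2, BMP4 and BMP7 outside the cell, was the only pathway gene whose genotypes did not overlap, beside 0.79% of all genes tested. It had 21.7, 31.9, 34.6, 23.7 and 26.9 in wild-type and 13.5, 9.05, 18.1, 20.4 and 14.2 in null libraries. The lowest wild-type library lay just above the highest null library. The means were 27.8 ± 5.42 and 15.1 ± 4.40 (SD, n = 5 each), a log2 fold change of −0.87 ± 0.23 (SE). The exact permutation p was 0.00794, the smallest that 5 against 5 can give, and the limma p was 0.00127, but over all genes the adjusted p was 0.867, and it ranged from 0.788 to 1.000 over the alternative settings, so *Chrd* did not pass. *Sost*, encoding sclerostin and named after its values were seen, was at 80.3 ± 10.1 and 98.6 ± 18.4 (SD, n = 5 each; limma p = 0.0378, adjusted 0.998; exact permutation p = 0.0794). The limma p of *Sost* was under 0.05 in 5 of the 10 fits that leave out 1 library, and it was 0.152 without null library 4. *Nog*, encoding noggin, was at 35.1 and 27.3, and *Fstl1*, *Gpc3* and *Twsg1* were at 11847 and 11652, 6353 and 6418, and 1861 and 1969. The median log2 ratio of the 14 was −0.005.

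Of 21 genes that process, store or activate the ligands, 18 had a mean of at least 10 and 7 were tested, with a median log2 ratio of −0.007. *Lrrc32*, whose protein GARP holds latent TGF-beta1 at the cell surface, was at 192.0 ± 16.6 and 222.0 ± 19.7 (SD, n = 5 each; log2 fold change 0.21 ± 0.08 SE; limma p = 0.0157, adjusted 0.998; exact permutation p = 0.0238), and it is named after its values were seen. Its lowest value, 165, was in wild-type library 3. The limma p was 0.0583 without that library (log2 fold change 0.16) and 0.0603 without null library 4. The fibrillin genes *Fbn1* and *Fbn2* were at 3321 and 3154, and at 5648 and 5493, and *Thbs1*, an activator of latent TGF-beta, was at 2834 and 3010.

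Genes known to respond to BMPs and TGF-betas were also examined. Of 15 BMP target genes 8 were tested, and 5 had a log2 ratio above 0 and 10 below, with a median of −0.05. The list includes *Bmp10*, which is also a ligand here. The T-box gene *Tbx20* was at 5824 and 6255, *Gata6* at 2318 and 2412, the cell cycle inhibitor *Cdkn1c* at 8754 and 8407, and the classic BMP target *Id1*, which lies outside the naming rule, at 412 and 421. Of 16 TGF-beta target genes, 15 had a mean of at least 10 and 6 were tested, with 4 ratios above 0 and 11 below and a median of −0.06. The matrix genes *Fn1*, *Col1a1* and *Col3a1* were at 24287 and 26386, 17122 and 15997, and 18594 and 18433.

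**Figure D5:**
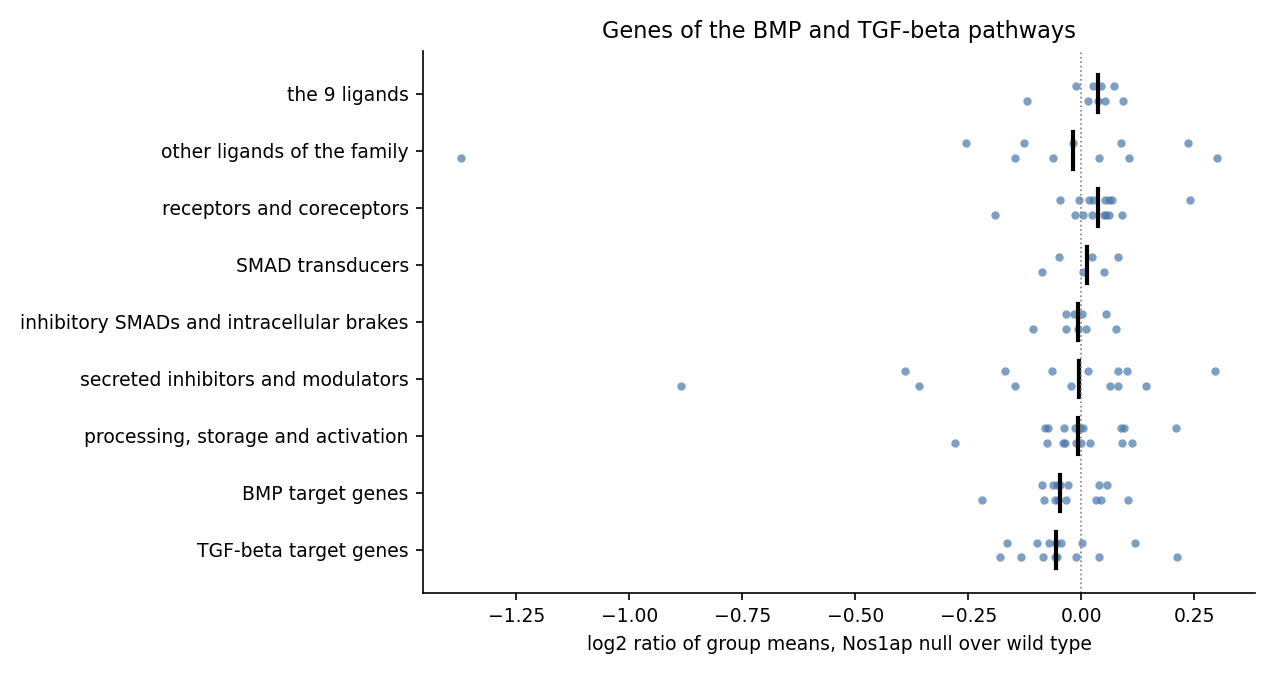
Log2 ratio of group means, *Nos1ap* null over wild type, for pathway genes whose mean normalized count reached 10, by group. Each point is a gene and each black bar the median of its group. Medians lie between −0.06 and 0.04, and the points farthest from 0 are *Gdf10* at −1.37, which rests on wild-type library 3, and *Chrd* at −0.88.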

How the data were processed

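PolyA RNA of 10 hearts was sequenced as stranded, paired-end libraries of 100-base reads. The authors trimmed reads with Trimmomatic (version 0.36), aligned them with STAR within RSEM (version 1.2.31) to GENCODE M10 transcripts of GRCm38, estimated gene counts with regard to strand, and compared genotypes with DESeq (version 1.24.0). Each deposited signal value is a normalized count that the authors averaged over the 5 libraries of a genotype. The deposited ratio, log2 ratio and p-value columns are the authors' own comparison and were not used. Columns of unmapped samples numbered 0.

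From the group means, whole counts were worked out for every library. The inverse of each size factor was read from genes with 1 count in a group, and the set of 5 whole counts that gives a mean to its last printed digit was then searched by lattice reduction, for means under 1000. Of the sets that fit, the one nearest to equal levels in all libraries was taken. It was kept where at most 0.01 other sets were expected by chance, a number that grows with the spread. This gave counts for 98.6% of such means in wild type and 99.0% in null. Size factors computed again from these counts differed by at most 0.845%. The numbers of the labels are not carried by these values. Depths in read pairs are estimates from the size factors and the summed means. The step was tested on simulated data.

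Genotypes were compared with limma (version 3.58.1, R 4.3.3) on log2(normalized count + 1), with trended and robust moderation. The genes tested were protein-coding, had a mean of at least 10 and had derived counts in both genotypes. These were 10251 of the 13299 protein-coding genes that reached this mean. The p-values were adjusted by Benjamini-Hochberg over all genes tested. No count model was fitted. Some cell type marker lists are not reported here. Single ligands were also compared by exact permutation over 252 arrangements of the libraries, and correlations by 100000 permutations. Per the methods, the tissue came from 5 males of each genotype. Counting intervals cover counting error only. Lengths, positions and sequences are from GRCm38 with GENCODE M21. Numerical work used Python 3.11.15, numpy 2.4.6 and scipy 1.17.1. Named were all 9 ligands and, from each list, genes with an adjusted p under 0.05, genes whose genotypes do not overlap and the 3 with the highest mean, besides the most alike gene of each ligand and *Nos1ap*. Other names are stated as chosen after their values were seen, which also holds for *Mt2*, *Gm7694*, *Nog*, *Id1*, *Myh11* and *Acan*. The ligands and the lists were chosen with earlier results of these data known. Alternatives changed the pseudocount (0.5), the filter (none, or a mean of 50), the gene types, the scaling, the method (voom), the gene length and the libraries included.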

Additional observations from a re-analysis of the deposited data

Results flagged for a closer look

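The 5 libraries of each genotype were searched for a library beyond the 95% critical value of Dixon's test, in 42 groups, of which chance marks about 1 in 20. This marked 0 of the 12 groups of ligand values and 2 others, both of them in wild-type library 3. The number marked, 2 of 42, is near that share. *Gdf10* was searched because of its ratio of group means, which rests on this library, so its mark followed from that choice. In that library *Gdf10* had a normalized count of 230.0, where the other wild-type libraries had 22.8 to 36.8. The smooth muscle gene *Myh11* was at 206, where the others had 32.9 to 69.1. Which cells or steps gave these values was not tested.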

How the results depend on the processing

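Of 251 values computed under other settings, 243 counted as unchanged. A tested value had to keep its direction and its side of the threshold. Counts and coefficients of variation had to stay within 1.5 times, and ratios of group means within their counting error. These limits are wide, since the order per kilobase with merged exons counted as unchanged although *Tgfb1* moved from the 4th to the 6th place. The coefficients of variation of *Bmp2* in wild type and of *Bmp6* in null, a setting chosen after seeing the data, moved to 9.80% without wild-type library 1 and 8.38% without null library 2. The 6 that changed direction were small fold changes, all from leaving out 1 library: for *Bmp2*, −0.11 without wild-type library 1, −0.0078 without wild-type library 4, −0.0098 without null library 1 and −0.0017 without null library 3, and for *Bmp4*, −0.025 without wild-type library 2 and −0.0031 without null library 2. Over the libraries left out, the log2 fold change ranged from −0.11 to 0.079 for *Bmp2*, −0.025 to 0.085 for *Bmp4*, 0.057 to 0.13 for *Bmp5*, −0.21 to −0.022 for *Bmp6*, 0.042 to 0.11 for *Tgfb1*, 0.025 to 0.095 for *Tgfb3* and −0.98 to −0.71 for *Chrd*. The number of ligands called stayed 0 under each setting, and that of all genes called was 3 to 4. The adjusted p of each of the 6 ligands stayed between 0.845 and 1.000. With merged exons, 7 of the 8 neighbouring pairs of the order per kilobase kept it, and with the longest protein-coding transcript, a setting chosen after seeing the data, all 8 did.

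No paired analysis was possible because the derived values carry no replicate number of the labels. *Chrd* and *Gdf10* have no value at a mean of at least 50, which they do not reach. *Bmp7*, *Bmp10* and *Tgfb2* have no spread between libraries, so no test was made of them, and the interval of counting error is too narrow for a comparison of genotypes.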
